A study of Homo sapiens with 7 samples.

Results

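A set of microRNAs (miRNAs) long known to be raised in hepatocellular carcinoma (HCC) was followed in small extracellular vesicles (sEVs) shed by HepG2 cells with and without knockdown of SYNCRIP: hsa-miR-21-5p, hsa-miR-221-3p, hsa-miR-222-3p, hsa-miR-224-5p, hsa-miR-452-5p, hsa-miR-210-3p and hsa-miR-155-5p. These 7 of the 2656 miRNAs in the count table were picked by name, for their known role in liver cancer, with earlier results of these data known. HepG2 is an established human liver tumour line, labelled as HCC, and SYNCRIP is an RNA-binding protein that sorts miRNAs into vesicles. The cells carried a lentiviral short hairpin RNA, selected with puromycin, that was either scrambled (shCTR, 3 libraries) or directed at SYNCRIP (shSYNCRIP, 4 libraries). All cells were grown in medium with vesicle-depleted serum before the sEVs were pelleted by differential ultracentrifugation and their small RNA was sequenced. The methods name doxycycline for inducible hairpins and 1 hairpin sequence per target, and the table holds no mRNA, so the level of SYNCRIP itself was not measured here. The study reports lower SYNCRIP in the knockdown cells by RT-qPCR and western blot. It describes this knockdown as less pronounced than that of METTL3, which it also silenced. The cell line field of the labels runs from HepG2 to HepG8 over the 7 libraries while every title says HepG2.

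A mature miRNA guides an Argonaute protein to messenger RNAs that pair with its seed, the stretch near its 5′ end. In liver tumours miR-21 represses the tumour suppressor PDCD4, and miR-221 and miR-222 repress the cell cycle inhibitor CDKN1B. miR-224 and miR-452 are processed from the GABRE locus, miR-210 is induced by hypoxia, and miR-155 is best known from activated immune cells. Once packed into sEVs such miRNAs can be passed to neighbouring cells.

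The mature sequences are shown because their seeds, in capitals (bases 2 to 8), decide which of the 7 can act on the same targets. They were taken from RefSeq on GRCh38.p14, where 7 of 7 names matched.
hsa-miR-21-5p: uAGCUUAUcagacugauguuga
hsa-miR-221-3p: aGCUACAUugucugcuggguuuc
hsa-miR-222-3p: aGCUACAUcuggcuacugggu
hsa-miR-224-5p: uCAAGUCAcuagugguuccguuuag
hsa-miR-452-5p: aACUGUUUgcagaggaaacuga
hsa-miR-210-3p: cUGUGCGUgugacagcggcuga
hsa-miR-155-5p: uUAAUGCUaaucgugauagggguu

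Only hsa-miR-221-3p and hsa-miR-222-3p shared a seed, and they were identical over their first 8 bases and at 11 of 21 positions counted from the 5′ end. Outside the 7, miR-590-5p carries the seed of hsa-miR-21-5p, and miR-4676-3p and miR-892c-3p carry that of hsa-miR-452-5p. All 3 had 0 counts in every library, so each of these seeds was read from the oncomiR alone.

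In GRCh38 hsa-miR-21-5p lies at chr17:59841273-59841294 on the plus strand, in an exon of an intron-retaining transcript of VMP1. The pair of miR-221 and miR-222 lies on the minus strand at chrX:45746180-45746202 and chrX:45747036-45747056, in an intron of the long non-coding RNA MIR222HG, with 748 bases between the hairpins. hsa-miR-224-5p at chrX:151958628-151958652 and hsa-miR-452-5p at chrX:151959678-151959699, also on the minus strand, lie in exons of intron-retaining transcripts of GABRE, a GABA-A receptor subunit gene, with 969 bases between the hairpins. hsa-miR-210-3p is at chr11:568112-568133 on the minus strand in an intron of MIR210HG, and hsa-miR-155-5p is at chr21:25573983-25574006 on the plus strand in an exon of MIR155HG. Gene models were those of GENCODE 29, and each miRNA lay on the strand of its host gene.

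SYNCRIP is known to bind a short motif called hEXO. The motif was searched after the first 7 bases on the miRNA strand, as 3 bases other than C, then a base other than U, then A or U, then C or G. It occurred in 4 of 7 oncomiRs (57.1%): hsa-miR-21-5p, hsa-miR-221-3p, hsa-miR-452-5p and hsa-miR-210-3p. It was not found in hsa-miR-222-3p, hsa-miR-224-5p or hsa-miR-155-5p. The motif is loose, as 1508 of 2370 mature miRNAs of the sequence table (63.6%) held it, so its presence separates few miRNAs. The 4 letters GGAG, another sorting motif, were in 0 of 7 oncomiRs and in 372 of those 2370 miRNAs (15.7%). Among the 105 miRNAs with a sequence that passed the filter on low counts in these libraries, 65 held hEXO (61.9%) and 8 held GGAG (7.62%).

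The libraries held between 29863 and 388226 miRNA counts, with 406 miRNAs detected in at least 1 library and 117 passing the filter on low counts. Of the liver miRNAs, miR-122-5p had 313 to 1664 counts in each of the 7 libraries, whereas miR-192-5p had at most 1 count and miR-885-5p had 0. The 9 miRNAs of a list typical of blood cells summed to between 10.9% and 19.9% of counts in shCTR and between 8.85% and 13.9% in shSYNCRIP. Most of each sum was a single member, miR-486-5p. It had 19681, 16232 and 34044 counts in shCTR replicates 1 to 3. In shSYNCRIP replicates 1 to 4 it had 17387, 2644, 23181 and 9816. The highest count of any other member was 6279, for miR-451a in shSYNCRIP replicate 3. miR-144-3p and miR-144-5p were seen in that library only, with 138 and 188 counts. The part of the listed miRNAs in the values of the oncomiRs was not tested. In such bulk preparations fewer vesicles of a kind and less of a miRNA per vesicle cannot be told apart.

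The 7 oncomiRs together took a small part of the vesicle miRNA in every library. Their summed share was 1.13%, 1.11% and 1.59% of counts in shCTR replicates 1 to 3, with a mean of 1.27% ± 0.270 (SD, n = 3). In shSYNCRIP replicates 1 to 4 it was 1.18%, 1.35%, 2.30% and 1.19%, with a mean of 1.504% ± 0.538 (SD, n = 4). The groups overlapped, and shSYNCRIP replicate 3 was the highest. The difference of 0.231 percentage points turned to -0.0348 without that library and to -0.248 when hsa-miR-21-5p was left out of the sum.

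**Figure D1:**
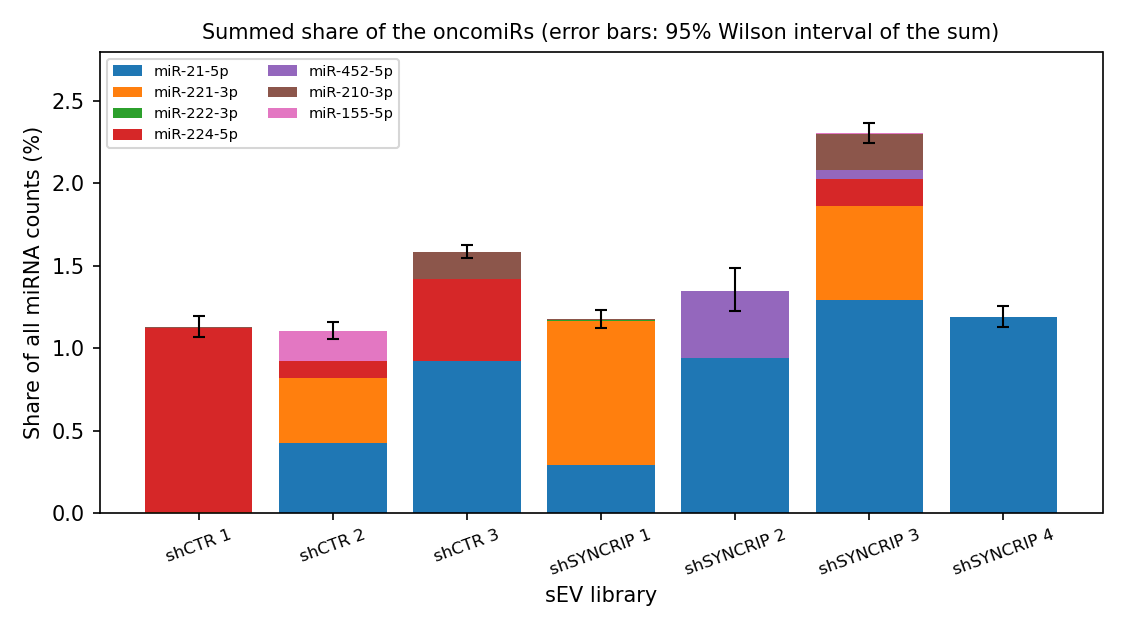
Share of all miRNA counts of a library taken by each of the 7 oncomiRs, in percent, stacked by miRNA for each of the 3 shCTR and 4 shSYNCRIP libraries; error bars are 95% Wilson intervals of the sum and cover counting error only. The total stays between 1.11% and 2.30%. Its main component is hsa-miR-21-5p except in shCTR replicate 1 (hsa-miR-224-5p) and shSYNCRIP replicate 1 (hsa-miR-221-3p).

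Which oncomiR made up that share differed widely, also within a group. In shCTR replicate 1 hsa-miR-224-5p gave 99.1% of the sum, in shSYNCRIP replicate 1 hsa-miR-221-3p gave 74.7%, and in shSYNCRIP replicate 4 hsa-miR-21-5p gave 100%. In the other 4 libraries hsa-miR-21-5p was the leading member, with 38.2% to 69.5% of the sum. shSYNCRIP replicate 4 held only this 1 of the 7 oncomiRs, while the other libraries held 4 to 6.

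The counts of single oncomiRs were either very low or high. Levels are given as counts and as CPM, which are counts scaled to the size of the library with TMM factors. Of the 49 values (7 miRNAs in 7 libraries) 18 were 0, 13 lay between 1 and 6, none lay between 10 and 99, and 18 were 121 or more. Such a gap was general, since over all miRNAs only 8.81% of the non-zero values lay between 10 and 99, and 47.8% lay between 1 and 9. An oncomiR was therefore either well represented in a library or had at most 6 counts there.

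**Figure D2:**
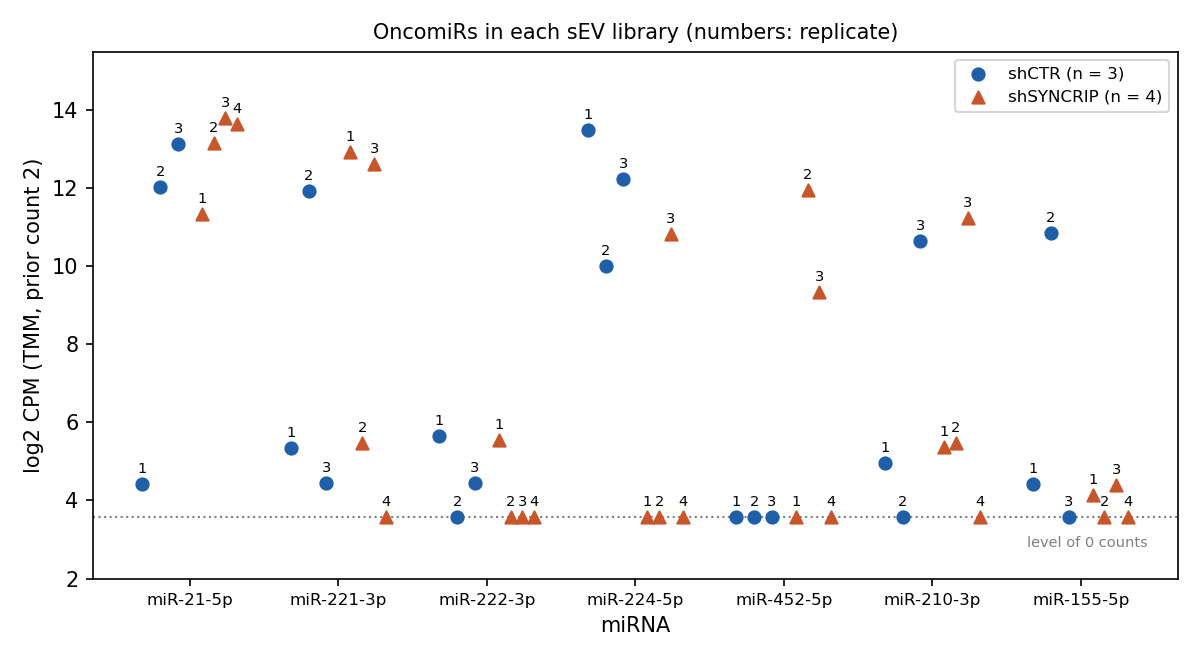
Level of each oncomiR as log2 CPM (TMM-scaled, prior count of 2) in the 3 shCTR libraries (circles) and 4 shSYNCRIP libraries (triangles), numbered by replicate; the dotted line is the level of 0 counts. For hsa-miR-224-5p all 3 circles lie well above the line and 3 of 4 triangles lie on it, while the groups overlap for every oncomiR.

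By mean share over the 7 libraries hsa-miR-21-5p was the most abundant of the 7, at rank 30 of 406 detected miRNAs with 0.722% of counts, between miR-451a and miR-26b-5p. In the shCTR libraries alone the order turned, with a mean of 0.573% for hsa-miR-224-5p and 0.448% ± 0.460 (SD, n = 3) for hsa-miR-21-5p. Over all libraries hsa-miR-224-5p (rank 58, 0.269%, next to miR-369-3p) and hsa-miR-221-3p (rank 59, 0.264%, next to miR-100-5p) came next and were neighbours in that order. hsa-miR-452-5p followed at rank 112, between miR-493-5p and miR-18b-5p, and hsa-miR-210-3p at rank 121, between miR-185-5p and miR-30a-3p. hsa-miR-155-5p stood at rank 158, between miR-382-5p and miR-200b-3p, and hsa-miR-222-3p was last at rank 242 with 0.00125%, between miR-376c-5p and miR-502-3p. Within each group the SD of hsa-miR-221-3p, hsa-miR-222-3p, hsa-miR-210-3p and hsa-miR-155-5p was larger than their mean, and neighbours in this order were not separated beyond the spread between libraries. Only the named arms were found: the opposite arms of all 7 hairpins had 0 counts, apart from 1 count of miR-221-5p in shSYNCRIP replicate 3.

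hsa-miR-224-5p had the largest fitted log2 fold change of the 3 oncomiRs that could be tested, and it was lower in shSYNCRIP sEVs by limma-voom. It had 1189, 151 and 1934 counts in shCTR replicates 1 to 3 and 0, 0, 391 and 0 counts in shSYNCRIP replicates 1 to 4. All 3 control libraries held it and 3 of 4 knockdown libraries did not, but shSYNCRIP replicate 3 lay above shCTR replicate 2, so the groups overlapped. The means were 5758 ± 5278 CPM (SD, n = 3) and 448 ± 896 CPM (SD, n = 4), a 12.8-fold difference, and shSYNCRIP replicate 3 alone was 3.21-fold below the shCTR mean. With 0 counts seen, the share could still be as high as 0.00199%, 0.0100% and 0.00261% in shSYNCRIP replicates 1, 2 and 4 (3 counts of the total). At the lowest shCTR share, 0.103%, these libraries would have held 155, 30.7 and 118 counts.

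In limma-voom, the test of the study, the log2 fold change of hsa-miR-224-5p was -7.32 (SE 1.74, 95% CI -10.80 to -3.84) with an adjusted p of 0.00377. This met the cutoffs of the study, a nominal p under 0.1 with a fold change over 0.5, here read as an absolute log2 fold change, as did 12.8% of the 117 tested miRNAs in the lower direction. An adjusted p under 0.05 was reached by 2.56% of them. edgeR's quasi-likelihood test on the same counts gave a log2 fold change of -3.62 with an adjusted p of 0.983, and DESeq2 gave -3.93 with an adjusted p of 0.879. Neither met the cutoffs. The size and the call therefore depended on the tool, while the direction did not. As only 1 of 4 knockdown libraries held hsa-miR-224-5p, its size on a log scale also depended on the prior count. The log2 CPM difference was -6.53 with a prior count of 2 and -8.02 with one of 0.5.

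Leaving out each library in turn, the limma-voom log2 fold change of hsa-miR-224-5p stayed between -9.49 and -6.49 and met the cutoffs in 7 of 7 fits. The adjusted p fell under 0.05 in 2 of 7 fits (0.000894 with shCTR replicate 2 left out, 3.57e-05 with shSYNCRIP replicate 3 left out) and reached up to 0.176 in the others. With a two-sided exact permutation test of log2 CPM alone, the difference was -6.53 (p = 0.114, where the smallest p of 35 splits is 0.0286). In edgeR the same fits gave -12.83 to -3.15 and met the cutoffs in 2 of 7, and the lowest value came without shSYNCRIP replicate 3 (adjusted p = 0.121). The filter on low counts asks for 3 libraries, which the 3 shCTR libraries of this miRNA already gave.

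**Figure D3:**
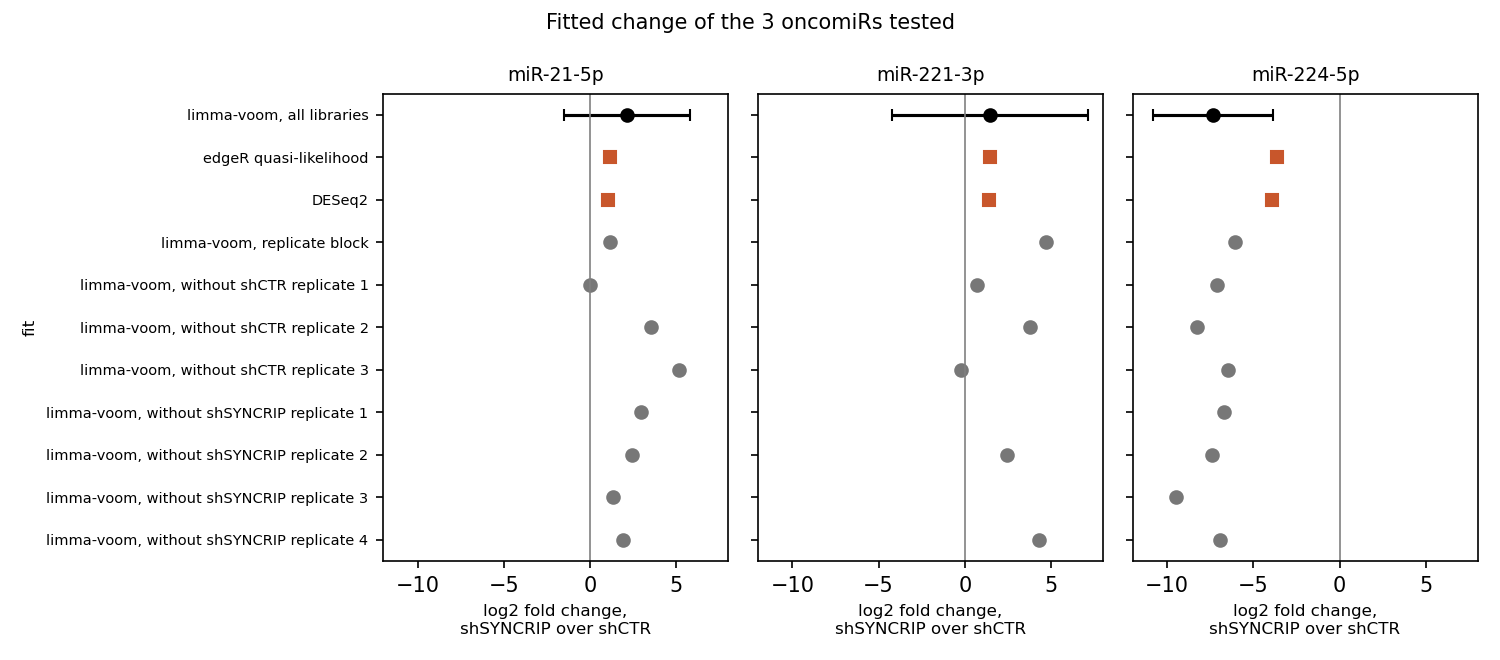
Log2 fold change, shSYNCRIP against shCTR, of the 3 oncomiRs that passed the filter: the black point and bar are limma-voom with its 95% interval, orange squares are edgeR and DESeq2, and grey points are the alternatives, including each library left out. For hsa-miR-224-5p every estimate lies below 0, for hsa-miR-21-5p and hsa-miR-221-3p the interval spans 0, and hsa-miR-221-3p has no value without shSYNCRIP replicate 1 or 3 because it then failed the filter.

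hsa-miR-21-5p was present in both groups. It had 1, 621 and 3572 counts in shCTR replicates 1 to 3 and 437, 280, 3111 and 1369 counts in shSYNCRIP replicates 1 to 4. All 4 knockdown libraries held it, as did 2 of 3 control libraries, and the remaining control library had a single count, which left the groups overlapping. The means were 4358 ± 4448 CPM (SD, n = 3) and 9695 ± 5225 CPM (SD, n = 4), 2.22-fold higher in shSYNCRIP, or 1.48-fold without shCTR replicate 1. In that library 308 counts would have been seen at the lowest shSYNCRIP share, 0.290%. limma-voom gave a log2 fold change of 2.14 (SE 1.84, 95% CI -1.54 to 5.82, adjusted p = 0.763), which met no cutoff. Single control libraries moved this value in both directions: it was -0.02 without shCTR replicate 1 and 5.18 without shCTR replicate 3, and in the latter fit it met the cutoffs given above. In a two-sided exact permutation test the log2 CPM difference was 3.13 (p = 0.343).

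hsa-miR-221-3p varied within both groups. It had 3, 580 and 4 counts in shCTR and 1323, 1, 1378 and 0 counts in shSYNCRIP. It was high in 1 of 3 control and 2 of 4 knockdown libraries, and the groups overlapped. The means were 1310 ± 2235 CPM (SD, n = 3) and 3528 ± 4098 CPM (SD, n = 4). limma-voom gave a log2 fold change of 1.46 (SE 2.83, 95% CI -4.22 to 7.13, adjusted p = 0.992), which became -0.20 when shCTR replicate 3 was left out and 4.33 when shSYNCRIP replicate 4 was, the latter meeting the cutoffs. The two-sided exact permutation test gave a difference of 1.41 (p = 0.686). Its seed partner hsa-miR-222-3p had 4, 0 and 4 counts in shCTR and 6, 0, 0 and 0 in shSYNCRIP. It reached at most 6 counts where hsa-miR-221-3p reached 1378, and it did not pass the filter.

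The partners of the GABRE pair did not go together either. hsa-miR-452-5p had 0 counts in all 3 shCTR libraries, which allows up to 0.00282%, 0.00204% and 0.000773% of their counts, and 0, 121, 140 and 0 counts in shSYNCRIP replicates 1 to 4. It was thus seen in 2 knockdown libraries, and only shSYNCRIP replicate 3 held both partners. hsa-miR-452-5p did not pass the filter. With no filter it met the cutoffs as higher in both tools, where 65 of 406 miRNAs did in limma-voom and 34 of 406 in edgeR. Its log2 fold change was then 4.796 in limma-voom and 10.22 in edgeR (adjusted p = 0.233 and 0.461). These values depend on the prior count because all shCTR libraries were at 0. Its log2 CPM difference of 3.54 gave p = 0.571 in a two-sided exact permutation test. The ratio of the partners was not tested for either pair, since in neither did both pass the filter.

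The hypoxia miRNA hsa-miR-210-3p had 2, 0 and 640 counts in shCTR and 5, 1, 527 and 0 counts in shSYNCRIP. One library of each group, shCTR replicate 3 and shSYNCRIP replicate 3, held nearly all of it. These were also the 2 deepest libraries. The means were 538 ± 915 CPM (SD, n = 3) and 620 ± 1198 CPM (SD, n = 4), and the difference of 0.02 on the log2 CPM scale gave p = 0.8 in a two-sided exact permutation test.

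hsa-miR-155-5p, the immune cell miRNA, had 1, 273 and 0 counts in shCTR and 1, 0, 2 and 0 counts in shSYNCRIP. All but 4 of its 277 counts came from shCTR replicate 2, so its means of 614 ± 1055 CPM (SD, n = 3) and 3.76 ± 4.55 CPM (SD, n = 4) rest on that library. Its log2 CPM difference was -2.36 (two-sided exact permutation p = 0.343), and that of hsa-miR-222-3p was -0.49 (p = 0.514 in the same exact test).

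Across the 7 oncomiRs, 3 passed the filter, 1 of them was lower by the cutoffs of the study and 0 were higher. Of the 117 tested miRNAs, 12.8% were lower and 5.13% were higher. edgeR's quasi-likelihood test called 0 of the 3 at an adjusted p under 0.05 and also 0% of the 117 miRNAs, of which 2 had an unadjusted p under 0.05. DESeq2, which gave no p for some of the 117, called 3 miRNAs and no oncomiR. In 0 of 7 oncomiRs did the groups stay apart on the log2 CPM scale, where 6.84% of the tested miRNAs did.

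**Figure D4:**
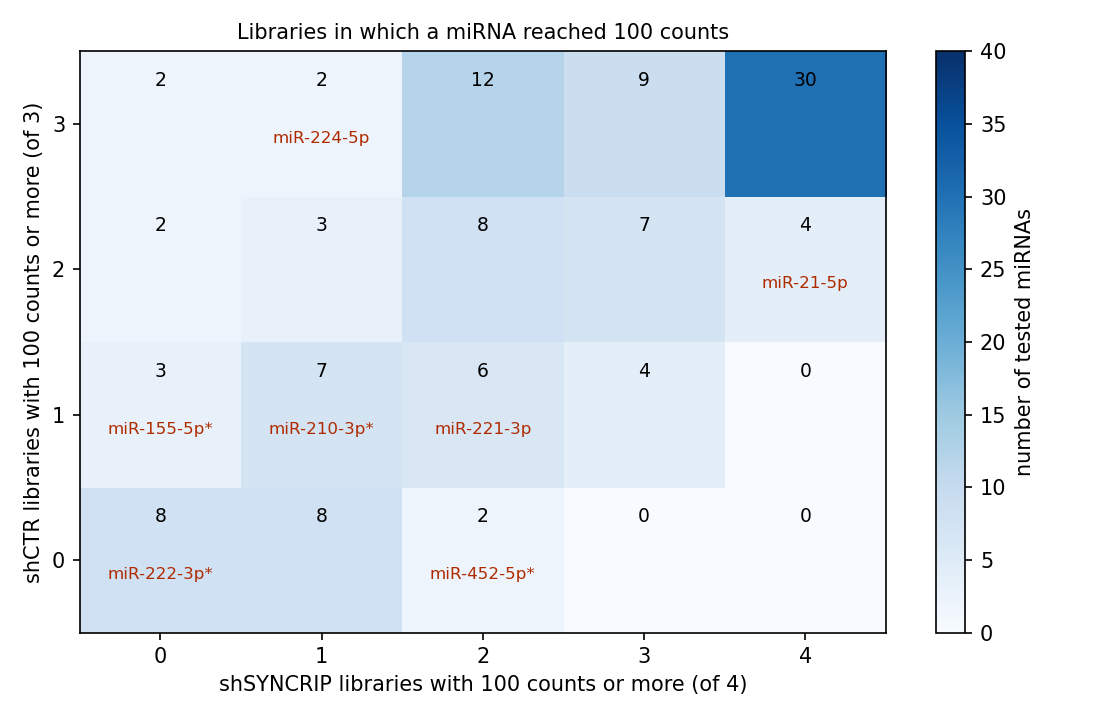
Number of shCTR libraries (of 3) and shSYNCRIP libraries (of 4) in which a miRNA reached 100 counts: each cell gives how many of the 117 tested miRNAs fall there, and the oncomiRs are written in their cells, with an asterisk for those that did not pass the filter and are not in the counts. hsa-miR-224-5p falls in the cell of all 3 shCTR and 1 shSYNCRIP libraries, which holds 2 tested miRNAs. The 100 counts are not scaled for library depth, which ran from 29863 to 388226 counts.

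The pattern of hsa-miR-224-5p, at least 100 counts in all 3 control libraries and in at most 1 knockdown library, was shared by 4 of the 117 tested miRNAs (3.42%), a pattern chosen after its values were seen. The other 3 were let-7b-5p, miR-130a-3p and miR-130b-3p. The limit of 100 counts is not scaled for library depth. For let-7b-5p, 63 of 29863 counts in shSYNCRIP replicate 2 were a larger share than 287 of 146903 in shCTR replicate 2. By Pearson correlation of log2 CPM over the 7 libraries, hsa-miR-224-5p was most like miR-130a-3p (r = 0.899, Spearman's rho = 0.852) and miR-130b-3p (r = 0.787, rho = 0.823). miR-130b-3p had 927, 375 and 1278 counts in shCTR and 0, 1, 1 and 0 in shSYNCRIP, while miR-130a-3p had 339, 223 and 509 against 11, 1, 37 and 0.

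hsa-miR-21-5p was most like miR-93-5p (r = 0.984, rho = 0.929) and let-7e-5p (r = 0.871, rho = 0.714). miR-93-5p, of the miR-106b/25 cluster, had 3, 1994 and 5110 counts in shCTR and 1419, 768, 5535 and 1551 in shSYNCRIP, again low in shCTR replicate 1 alone. hsa-miR-221-3p was most like miR-877-5p (r = 0.973, rho = 0.667) and miR-98-5p (r = 0.907, rho = 0.786). These coefficients describe 7 libraries that share their depth and their scaling, and they were picked as the highest of 117 miRNAs.

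A wider list of 25 other miRNAs raised in HCC had 12 tested members, with a median limma-voom log2 fold change of -0.02 against -0.07 over all tested miRNAs. By the cutoffs, 2 of the 12 were lower and 1 was higher, beside 12.8% and 5.13% of all tested miRNAs. The lower ones, miR-106b-5p and miR-130b-3p, had the same direction in edgeR and DESeq2. miR-18a-5p, the higher one, had a log2 fold change of 4.43 in limma-voom, -0.60 in edgeR and -0.55 in DESeq2, so its direction turned with the tool. Of 26 miRNAs lowered in HCC 18 were tested, and the median was 0.22. None of the 18 met the cutoffs in either direction, beside the same 12.8% and 5.13%.

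Among the liver cell miRNAs 6 of 8 were tested, with a median of -0.62, and 1 of the 6 met the cutoffs as lower, beside the same 12.8%. This was miR-483-5p, at -4.05 in limma-voom, 0.16 in edgeR and 0.02 in DESeq2. Among the blood cell miRNAs 6 of 9 were tested, with a median of -2.39. By the cutoffs 2 of the 6 were lower, again beside 12.8% of all tested miRNAs. Of the 2, miR-142-5p had the same direction in all 3 tools, whereas miR-451a was at -3.62 in limma-voom, 0.60 in edgeR and 0.32 in DESeq2. edgeR's quasi-likelihood test called 0 members of each list at an adjusted p under 0.05.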

How the data were processed

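Small RNA of sEVs from 3 shCTR and 4 shSYNCRIP HepG2 cultures, labelled as biological replicates, was sequenced by the authors, who deposited raw counts per mature miRNA. Per the methods and labels, reads were trimmed (FastqToolkit 2.2.5, cutadapt) and counted with MiRDeep2 1.3.1 against miRBase 22.1 on GRCh38. Columns were matched to samples by group letters and replicate number, and the labels name no batch or date.

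The counts were scaled by TMM and filtered with filterByExpr in edgeR 4.0.16 (R 4.3.3). All 117 miRNAs left were tested with limma-voom (limma 3.58.1) and edgeR's quasi-likelihood test, with Benjamini-Hochberg adjustment over all of them. DESeq2 1.42.0 was run on the same 117 but gave no p for some, and its Benjamini-Hochberg adjustment left those out. CPM are TMM-scaled, and log2 CPM used a prior count of 2. Intervals of shares are 95% Wilson intervals, and these and the limits from 3 counts cover counting error only. Named were the 7 oncomiRs, their other arms, miRNAs sharing a seed, the 2 most correlated miRNAs of each tested oncomiR and its neighbours in mean share; those sharing the detection pattern of hsa-miR-224-5p, members of the lists and marker miRNAs are named beside them. The oncomiRs and lists were chosen with earlier results of these data known. Other scalings, filters, tools, a replicate block and left-out libraries were tried.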

Additional observations from a re-analysis of the deposited data

Results flagged for a closer look

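Among the 8 sets of 4 shSYNCRIP libraries checked (7 oncomiRs and their sum), 3 had 1 library far from the others. In the 2 single miRNAs among them the other 3 libraries are tied at 0 counts, so that any count would stand apart, and the usual chance rate of about 1 in 20 sets does not apply. hsa-miR-224-5p had a log2 CPM of 10.8 in shSYNCRIP replicate 3, with 391 counts against 0 in the other 3 libraries. The summed share of the 7 oncomiRs was 2.30% in the same library. hsa-miR-222-3p had a log2 CPM of 5.56 in shSYNCRIP replicate 1, which is 6 counts against 0 in the other 3.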

How the results depend on the processing

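Of the oncomiRs, 1 met the cutoffs of the study in limma-voom (1 to 2 with a library left out): 2 without a filter (hsa-miR-224-5p, and hsa-miR-452-5p as higher), 0 with at least 10 counts in every library (where no oncomiR was left to test), 0 with edgeR and 0 with DESeq2. Over all miRNAs 15 of 117 were lower and 6 higher in limma-voom, against 22 and 65 of 406 without a filter. With a library left out, 11 to 19 were lower and 2 to 6 higher, of 98 to 139 tested. For edgeR the numbers were 3 and 5 of 117, and for DESeq2 4 and 7. An adjusted p under 0.05 in limma-voom was reached by 1 oncomiR (0 to 1 with a library left out) and by 0 with the filter of 10 counts. Over all miRNAs it was reached by 3 of 117, and by 0 of 36 with that filter. In edgeR the number of oncomiRs was 0 throughout. With a replicate block 2 oncomiRs met the cutoffs and 0 the adjusted p, and the log2 fold change of hsa-miR-221-3p was 4.71. Over all 117 miRNAs the block gave 7 lower, 6 higher and 1 with an adjusted p under 0.05. The labels do not say whether the replicate numbers pair the samples. For each tested miRNA the deviation of its log2 CPM from the mean of its group was taken. Between an shCTR and an shSYNCRIP library of the same number, these deviations correlated at -0.0642, -0.0336 and 0.0885 for numbers 1 to 3. Between libraries of other numbers the deviations correlated at -0.143 to 0.133, -0.116 to 0.148 and -0.0885 to -0.000327. So few libraries cannot settle whether they are paired. hsa-miR-224-5p had log2 fold changes of -3.62 in edgeR and -3.93 in DESeq2. With a library left out, log2 fold changes ran from -0.0162 to 5.18 for hsa-miR-21-5p and from -0.20 to 4.33 for hsa-miR-221-3p. Log2 CPM differences then ran from -0.0189 to 3.75 for hsa-miR-221-3p, -0.99 to 0.0571 for hsa-miR-222-3p and -1.59 to 2.15 for hsa-miR-210-3p. The difference in summed share ran from -0.0348 to 0.387 points and was -0.248 without hsa-miR-21-5p. In all, 130 of the alternative values kept direction and side of the threshold, 12 became weaker, 7 stronger and 9 reversed, and the cause was not tested. The 130 include 58 log2 CPM differences of single oncomiRs that had no call to lose, and edgeR counts that stayed at 0. A log2 CPM difference of 0.0094 for hsa-miR-221-3p without shCTR replicate 3 also counted as kept. The tally therefore does not measure stability. The ratio of cluster partners and its alternatives were not run, since no pair had both partners tested. The 3 and 4 libraries, of as few as 29863 counts, leave intervals of several log2 units.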
